A study of Homo sapiens with 12 samples.

Results

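The extracellular matrix genes described here are 42 genes for collagen chains, laminin chains, nidogens, basement membrane proteoglycans, matrix glycoproteins and latent TGF-beta binding proteins. They were taken from a fixed list of names and matched by symbol to the Ensembl identifiers of the deposited tables, which hold 62703 identifiers in all. Each of the 42 was found, and 34 were expressed, which here means 1 TPM or above in at least 3 of the 12 libraries. TPM is a read measure divided by transcript length and scaled to a fixed library total. A level is thus a share of its library and not an absolute amount.

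RNA was sequenced from HK2 cells, an immortalised line from human proximal tubule, in 4 groups of 3 libraries. NG cells received a control vector in 5.5 mM glucose, and HG cells were kept in 50 mM glucose. The si-FGF9 cells received an siRNA against FGF9 (fibroblast growth factor 9, a secreted ligand of FGF receptors) in 5.5 mM glucose, and HG+OE-FGF9 cells an FGF9-overexpressing lentivirus vector in 50 mM glucose. All groups share the cell line and the serum-containing medium, and no vector is named for HG. No non-targeting siRNA group, no empty vector group in 50 mM glucose and no duration of the high glucose is described for these libraries. The sources differ on the vector, which is named as adenovirus in another passage, and on the NG medium, described elsewhere as containing mannitol. No label says whether the 3 libraries of a group came from separate cultures, so that p-values measure the spread between these libraries, which may be technical.

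Epithelial cells rest on a basement membrane, a sheet of laminin trimers and a collagen IV network. It also holds nidogens and the heparan sulphate proteoglycans perlecan and agrin. The interstitial matrix around it is built from fibrillar collagens, fibronectin and fibrillins, and holds TGF-beta in latent form. In the diabetic kidney, thickened tubular basement membranes and deposition of collagen and fibronectin are the features of tubulointerstitial fibrosis, and the study asked how FGF9 bears on that process in tubular cells.

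FGF9 itself was listed at 0 TPM in all 9 libraries of NG, HG and si-FGF9, and at 3.34, 4.03 and 3.82 TPM in HG+OE-FGF9. The overexpression was thus visible in each of its libraries, whereas a knockdown could not be measured because the control level was already 0. Of 9 proximal tubule markers, 5 reached the 1 TPM minimum, among them PAX8 and GGT1, whereas LRP2, CUBN and SLC34A1, the receptors and phosphate transporter that define the mature segment, stayed at 0.15 TPM or less. Of 5 epithelial markers, the keratins KRT8, KRT18 and KRT19 were at 211 TPM or more in every library. EPCAM was at 19.9 to 31.3 TPM in NG and at 3.95 to 16.1 TPM in the other groups. CDH1, which encodes E-cadherin, was at 0.28 TPM or less in all 12 libraries. Of 5 fibroblast markers only lumican (LUM) passed 1 TPM in 3 libraries, and PDGFRA, PDGFRB and THY1 were at 0.41 TPM or less. The summed fibroblast markers, nearly all LUM, ran from 56.6 to 84.9 TPM in NG, 14.6 to 39.1 TPM in HG, 9.42 to 18.5 TPM in si-FGF9 and 10.0 to 19.95 TPM in HG+OE-FGF9. Their part in the results below was not tested. None of 4 endothelial markers reached 1 TPM, and of 3 leukocyte markers only CD68, also a lysosomal protein of other cells, did. In bulk RNA, fewer cells of a kind and less RNA per cell cannot be told apart.

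HG replicate 3 and HG+OE-FGF9 replicate 3 stood apart within their groups. Across all genes tested, the median absolute log2 difference from their group mates was 0.393 and 0.554 for the former and 0.385 and 0.387 for the latter, against 0.0848 to 0.29 among the other pairs of a group. HG replicate 3 lay above both group mates in 22 of the 34 expressed matrix genes, and HG+OE-FGF9 replicate 3 in 31. These counts were not taken over all genes, so nothing particular to the matrix genes is read from them. Values without them are given below.

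Levels in NG spanned several orders of magnitude. Fibronectin FN1, the adhesive glycoprotein that cells bind through integrins, was the most abundant, with a mean of 5186 ± 835 TPM (SD, n = 3). TGFBI, a secreted adhesion protein induced by TGF-beta, followed at 2554 ± 263 TPM, and SPARC, a collagen-binding matricellular protein, at 1628 ± 39.7 TPM. These 3 genes made up 79 ± 1.25% (SD) of the summed TPM of the 42. Of the 42, 11 had a mean above 100 TPM in NG.

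The chains of classical scar collagen were nearly missing. COL1A2 and COL3A1 reached at most 0.22 and 0.07 TPM in any library, and COL1A1, which passed the minimum, at most 7.81 TPM. The other genes below the minimum were COL5A2 (highest value 0.27 TPM), COL4A3 (0.23), COL4A4 (0.65), COL4A6 (0.01), COL6A3 (0.83) and LTBP1 (0.29). Of the 34 expressed genes, 29 were at 1 TPM or more in all 12 libraries. The remaining 5, COL4A5, COL12A1, COL17A1, LAMA4 and NID2, were under 1 TPM in some libraries. A gene that passed through the group where it is high had to differ between groups, so the counts below are read only against the same counts over all genes.

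The summed TPM of the 42 genes was 13242, 11158 and 11142 (NG), 7506, 6057 and 8461 (HG), 5629, 5940.3 and 5207 (si-FGF9) and 2947, 2955 and 5193 (HG+OE-FGF9). Every library of the 3 treated groups lay below every NG library, and the first and second HG+OE-FGF9 libraries were the lowest of the 12. The order did not rest on FN1: without it the sum was 7094, 6412 and 6479 (NG), 4845, 4467 and 5018 (HG), 4179, 4189.8 and 3941 (si-FGF9) and 2387, 2388 and 3251 (HG+OE-FGF9). On that sum all 3 HG+OE-FGF9 libraries were below the other 9.

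**Figure D1:**
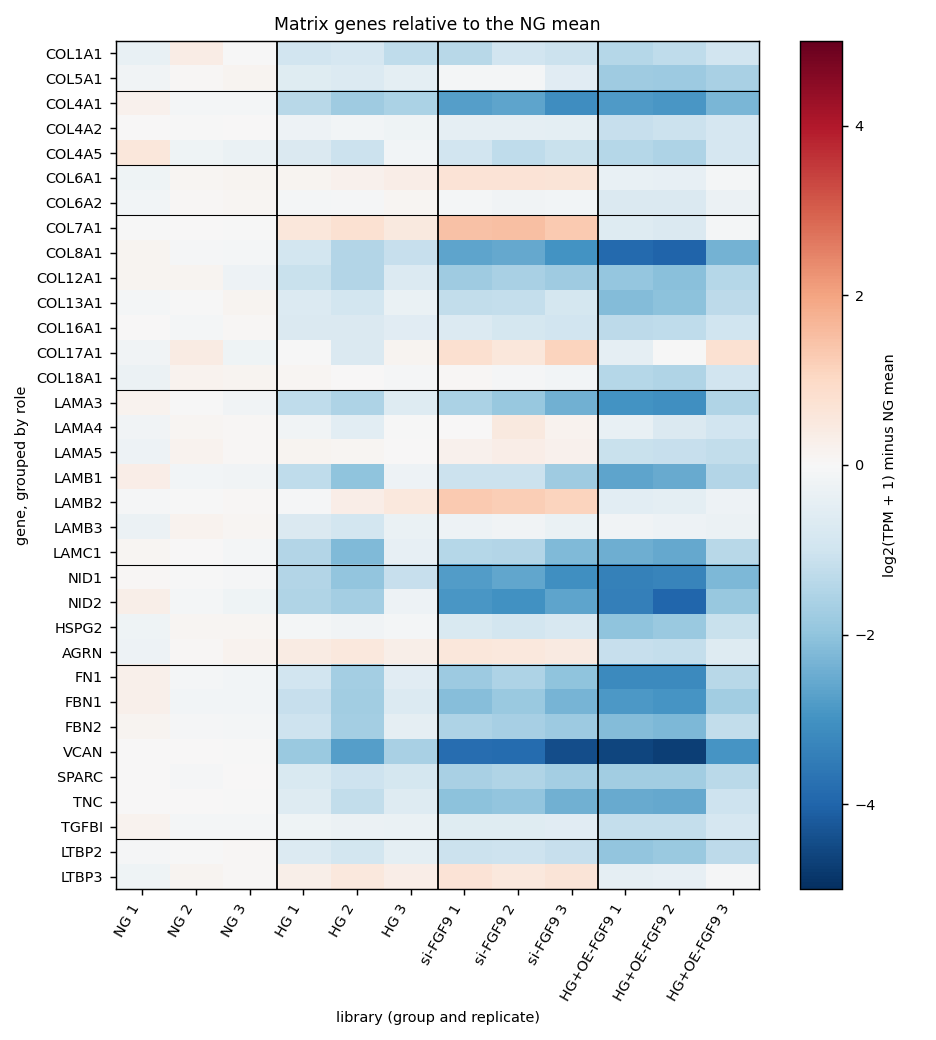
Each row is 1 of the 34 expressed matrix genes, ordered by role between thin lines, and each column 1 library. Colour gives log2(TPM + 1) minus the mean of the 3 NG libraries, from blue (lower) to red (higher). Blue covers most rows in the first 2 HG+OE-FGF9 libraries, VCAN is the darkest row, and COL7A1 and LAMB2 are red in si-FGF9.

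The groups were compared by a limma fit to log2(TPM + 1) of the 14639 genes that passed the minimum, and a gene was called when its log2 fold change was at least 1 in size with an unadjusted p under 0.01, the criteria of the study. Adjusted p are Benjamini-Hochberg values over all genes tested, and ± after a log2 fold change is the standard error. HG and si-FGF9 were each set against the same 3 NG libraries, and HG+OE-FGF9 and, in a further comparison, si-FGF9 against the same 3 HG libraries.

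With FGF9 overexpression in high glucose, 17 of the 34 expressed matrix genes fell against HG and none rose. Among all genes tested, 2.67% were called lower and 2.94% higher in this comparison. The median log2 fold change of the 34 was -1.02, against -0.13 over all genes tested, and 32 of the 34 had a negative fold change. The 17 came from most of the roles: COL5A1, COL4A1, COL7A1, COL8A1, COL13A1 and COL18A1 among collagens, LAMA3 and LAMA5 among laminins, NID1, NID2, HSPG2 and AGRN, and FN1, FBN1, VCAN, TNC and LTBP2. All 3 HG+OE-FGF9 libraries were below the other 9 for 13 of the 34, against 1.95% of all genes tested. Of the 2 matrix genes with a positive fold change, LAMB3 had an unadjusted p under 0.05 in limma and neither had an adjusted p under 0.05.

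In HG against NG, 9 of the 34 fell and none rose, against 22.7% and 1.65% of all genes tested. Of those with a positive fold change, 3 had an unadjusted p under 0.05 in limma. The 9 genes are 26.5% of the matrix genes, near the share over all genes. In si-FGF9 against NG, 18 fell and 2 rose, which is 52.9% and 5.88%, against 42.2% and 5.36% of all genes tested. The si-FGF9 share called lower was thus somewhat above that over all genes, and nothing particular to the matrix genes is read from either of these shares as deposited. Values after a correction for GC content are given below. The median log2 fold change was -0.67 (HG) and -1.09 (si-FGF9), against -0.39 and -0.79 over all genes. A direct comparison of si-FGF9 with HG called 6 lower and 1 higher, against 9.67% and 1.4% of all genes.

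**Figure D2:**
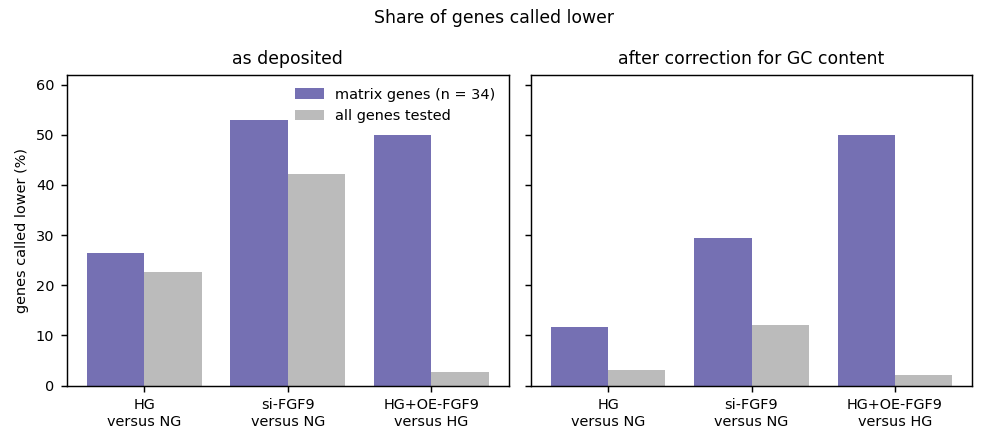
Bars give the percentage of genes called lower in each comparison, for the 34 expressed matrix genes and for all genes tested, on TPM as deposited (left) and after correction for GC content (right). In HG+OE-FGF9 versus HG the share was 50% of matrix genes in both panels, against 2.67% and 2.18% of all genes, whereas in HG versus NG as deposited it was 26.5% against 22.7%.

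The fold changes in HG and si-FGF9 followed the GC content of the transcripts. Across the 34 genes, Spearman's rho between GC content of the longest transcript and log2 fold change reached 0.758 for HG and 0.681 for si-FGF9, both against NG, and 0.165 for overexpression against HG. Over 14191 genes with a GC value it was 0.636, 0.566 and 0.288. These are descriptions across genes, which share libraries and are not independent replicates. The matrix genes called lower in HG had a median GC of 48% and the others 59%. In si-FGF9 these were 50.1% and 63.2%, and with overexpression 55.4% and 55.9%. The 34 had a median GC of 55.7%, against 48.3% over all genes. After a spline on GC content was subtracted from each library, 4 of the 34 fell in HG (COL1A1, COL4A1, NID1 and VCAN) and 10 in si-FGF9. Of all genes 3.06% and 12% fell. The median log2 fold change of the 34 was then -0.61 (HG) and -0.71 (si-FGF9), against -0.02 and -0.07 over all genes. With length also corrected for, it was -0.31 and -0.38, against -0.01 and -0.04. The cause of these differences was not tested. The correction for GC content alone left the 17 genes lower with overexpression as they were, gene for gene. Scaling by the median of ratios moved the median of all genes from -0.39 to 0.01 (HG) and from -0.79 to 0 (si-FGF9). Under that scaling 3 matrix genes were lower and 1 higher in HG, against 8.27% and 7.43% of all genes, and 9 lower and 7 higher in si-FGF9, against 17.5% and 19.2%. With overexpression 13 were lower and none higher, against 1.78% and 3.64%, the calls of COL4A1, COL5A1, COL7A1 and LTBP2 being lost. In si-FGF9 against HG 2 were lower and 3 higher, against 2.23% and 5.77%.

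**Figure D3:**
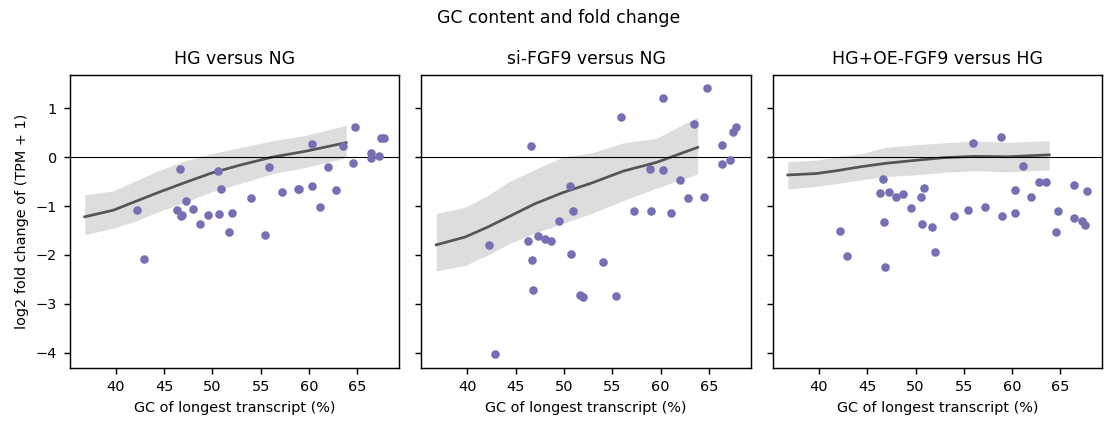
Points are the 34 matrix genes, with GC content of the longest transcript in percent on the x axis and log2 fold change of (TPM + 1) on the y axis, in the 3 study comparisons. The line is the median and the grey band the interquartile range of all genes with a GC value, in 10 bins of equal size by GC content. In HG versus NG the line climbs from -1.22 in the bin with the lowest GC to 0.30 in the highest, whereas in HG+OE-FGF9 versus HG it stays between -0.36 and 0.05 with most points below it.

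Collagen IV is the network-forming collagen of basement membranes, and its partner genes COL4A1 and COL4A2 differed in HG and si-FGF9. They encode the chains of the common trimer and are transcribed in opposite directions on chromosome 13. In RefSeq their starts are separated by 126 bases, whereas in GENCODE the 2 genes overlap there. COL4A1 was at 282, 223 and 224 TPM (NG), 90.8, 69.4 and 80.4 TPM (HG), 34.9, 38.4 and 27 TPM (si-FGF9) and 33.1, 31.4 and 49.2 TPM (HG+OE-FGF9). COL4A2 was at 289, 282 and 294 TPM (NG), 240.5, 263 and 250.4 TPM (HG), 212, 211 and 206 TPM (si-FGF9) and 131, 136 and 162 TPM (HG+OE-FGF9). The NG and HG libraries of COL4A1 did not overlap, and its si-FGF9 and HG+OE-FGF9 libraries were lower again, while COL4A2 descended in smaller steps in the order NG, HG, si-FGF9, HG+OE-FGF9 with no overlap between neighbours. COL4A1 fell 3.03-fold in HG (log2 fold change -1.59 ± 0.20, adjusted p = 0.000588), 7.27-fold in si-FGF9 (-2.83 ± 0.20, adjusted p = 3.03e-06) and 2.12-fold with overexpression (-1.08 ± 0.20, adjusted p = 0.007). The last call was lost without HG replicate 1 or HG+OE-FGF9 replicate 2, at the edge of the fold criterion. COL4A2 was not called in any of them, at log2 fold changes of -0.20 ± 0.11, -0.46 ± 0.11 and -0.81 ± 0.11, the last with an adjusted p of 0.00132.

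The ratio of COL4A1 to COL4A2 was 0.976, 0.793 and 0.76 (NG), 0.377, 0.264 and 0.321 (HG), 0.165, 0.182 and 0.131 (si-FGF9) and 0.254, 0.231 and 0.303 (HG+OE-FGF9). It was looked at after the values were seen and is given without a test. The ratio was highest in NG and lowest in si-FGF9, without overlap, whereas HG and HG+OE-FGF9 overlapped. COL4A1 has a GC content of 55.4% and COL4A2 of 62%. The difference between their log2 fold changes, COL4A1 minus COL4A2, was -1.39 (HG) and -2.37 (si-FGF9), and -1.10 and -1.94 after the correction for GC content. With overexpression the 2 genes moved nearly together, with a difference of -0.27. Exons of 2 antisense genes overlap COL4A2 in GENCODE, and the sources do not say whether reads were counted by strand.

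The 4 remaining collagen IV chains were low. COL4A3 and COL4A4, the chains of the glomerular basement membrane, share a similar arrangement on chromosome 2, with 418 bases between their RefSeq starts, and COL4A5 and COL4A6 on the X chromosome, with 379. Of these only COL4A5 was expressed, at 3.63, 1.66 and 1.46 TPM (NG), 0.88, 0.49 and 1.8 TPM (HG), 0.62, 0.31 and 0.45 TPM (si-FGF9) and 0.16, 0.08 and 0.72 TPM (HG+OE-FGF9). The NG and HG libraries overlapped, and si-FGF9 lay below NG. COL4A5 reached 1 TPM in only 4 libraries, those of NG and HG replicate 3, so it passed the minimum only through NG. A fall against NG was thus favoured by the filter, and its p is not read as support. In si-FGF9 it was called lower (log2 fold change -1.10 ± 0.29, adjusted p = 0.00503). That call was lost without NG replicate 1 or si-FGF9 replicate 2 and after the correction for GC content (-0.50).

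Laminins are trimers of an alpha, a beta and a gamma chain. The beta chains LAMB1 and LAMB2 parted in si-FGF9 and, to a lesser degree, in HG. LAMB1 was at 576, 416 and 402 TPM (NG), 191, 113 and 383 TPM (HG), 215, 219 and 133 TPM (si-FGF9) and 73.4, 78.3 and 167 TPM (HG+OE-FGF9). LAMB2 was at 147, 149 and 158 TPM (NG), 144, 189 and 219 TPM (HG), 373, 355 and 326 TPM (si-FGF9) and 105, 107 and 127 TPM (HG+OE-FGF9). HG replicate 3 of LAMB1 came near the NG range and the other HG libraries lay well under it, while all 3 si-FGF9 libraries of LAMB2 were above the other 9 and all 3 HG+OE-FGF9 libraries below them. LAMB2 rose 2.32-fold in si-FGF9 (log2 fold change 1.21 ± 0.15, adjusted p = 3.04e-05, and 1.22 after the correction for GC content). No call was made in HG (0.26 ± 0.15) or with overexpression (-0.68 ± 0.15, adjusted p = 0.0172). LAMB1 fell in si-FGF9 (log2 fold change -1.31 ± 0.41, adjusted p = 0.0131), but not once GC content was corrected for (-0.63), nor when HG replicate 1 or any 1 of the NG or si-FGF9 libraries was left out. In HG against NG the log2 fold change of LAMB1 was -1.17 ± 0.41 (adjusted p = 0.0331), not called, and -0.83 after the correction for GC content. Against HG, si-FGF9 had a LAMB2 log2 fold change of 0.95 ± 0.15 (adjusted p = 0.00251), just short of the fold criterion.

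Of the summed TPM of both beta chains, LAMB1 made up 79.7, 73.6 and 71.7% (NG), 57, 37.5 and 63.6% (HG), 36.6, 38.1 and 28.9% (si-FGF9) and 41.1, 42.2 and 56.8% (HG+OE-FGF9). The share, chosen after its values were seen, was 71.7% or more in NG and 63.6% or less in each of the other 9 libraries. The longest transcript has a GC content of 49.5% for LAMB1 and 60.3% for LAMB2. In si-FGF9 against NG, the log2 fold change of LAMB1 minus that of LAMB2 was -2.52, and -1.86 with GC content corrected for. In HG against NG this difference was -1.43, and -0.94 with GC content corrected for. Exons of LAMB1 overlap 2 genes on the opposite strand. The stretches before the starts of both genes are shown as a description, and a link to the levels of the chains was not tested. In each case only bases that precede the start in both RefSeq and GENCODE are given, with GGGCGG boxes on either strand in capitals. LAMB1 lies at chr7:108003256-108003411 and LAMB2 at chr3:49133119-49133300 (GRCh38.p14, minus strand, read 5′ to 3′).

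LAMB1: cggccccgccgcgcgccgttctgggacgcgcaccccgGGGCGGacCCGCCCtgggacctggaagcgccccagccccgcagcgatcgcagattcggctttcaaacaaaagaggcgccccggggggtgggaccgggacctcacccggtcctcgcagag

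LAMB2: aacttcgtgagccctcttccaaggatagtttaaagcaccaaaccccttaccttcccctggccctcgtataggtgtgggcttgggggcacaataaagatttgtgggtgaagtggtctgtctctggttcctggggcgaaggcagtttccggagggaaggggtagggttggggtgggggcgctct

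The LAMB1 stretch was 75% G or C and held GGGCGG on either strand 2 times, and the LAMB2 stretch was 56.6% G or C and did not hold it, although the longer RefSeq window of LAMB2, which runs past the start, did. Over the windows of 250 bases before to 50 after the RefSeq start, 30 of the 34 expressed matrix genes were matched. Of these, 24 (80%) held GGGCGG on either strand, against 44.6% of 27305 gene windows. The 27305 were taken whether or not the gene was expressed here, so the sets are unlike. CCAAT was in 8 of 30 (26.7%, against 35.7%), TATAAA in 4 (13.3%, against 12%) and TGANTCA in 1 (3.33%, against 7.76%). None of these strings contains another, and a match is a description of the letters alone. No window was matched for COL1A1, COL6A1, COL8A1 and AGRN among the expressed genes.

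Of the other laminin chains, the gamma chain LAMC1, shared by most trimers, was at 235, 224 and 209.8 TPM (NG), 80.4, 47 and 167 TPM (HG), 81.7, 79.3 and 47.8 TPM (si-FGF9) and 40.5, 37.2 and 84.1 TPM (HG+OE-FGF9). HG replicate 3 was again nearest to NG, and no HG library reached the NG range. LAMC1 fell in HG (log2 fold change -1.37 ± 0.41, adjusted p = 0.0164) and in si-FGF9 (-1.70 ± 0.41, adjusted p = 0.00266), at -0.98 and -0.98 after the correction for GC content, under which neither was called. With overexpression its log2 fold change was -0.76 ± 0.41 (adjusted p = 0.242).

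LAMA5, an alpha chain of mature tubular basement membranes, was at 33.2, 45.6 and 41.8 TPM (NG), 43.7, 42.3 and 40.5 TPM (HG), 46.3, 50.2 and 46 TPM (si-FGF9) and 17.8, 17.3 and 16.4 TPM (HG+OE-FGF9). Its HG+OE-FGF9 libraries were below all others, NG and HG overlapped, and si-FGF9 was slightly above both. LAMA5 fell 2.45-fold with overexpression (log2 fold change -1.25 ± 0.14, adjusted p = 0.000467) and was not called in HG (0.08 ± 0.14) or si-FGF9 (0.25 ± 0.14). LAMA3, an alpha chain of epithelial laminins, was at 21, 18.2 and 16.3 TPM (NG), 6.94, 5.59 and 11.5 TPM (HG), 5.44, 4.15 and 2.65 TPM (si-FGF9) and 1.46, 1.34 and 5.75 TPM (HG+OE-FGF9). NG was highest without overlap, and HG+OE-FGF9 replicate 3 lay within the HG range. LAMA3 fell in si-FGF9 (log2 fold change -1.97 ± 0.39, adjusted p = 0.000661) and with overexpression (-1.36 ± 0.39, adjusted p = 0.0472). The latter call was lost without HG replicate 3 or without HG+OE-FGF9 replicate 1 or 2, and lowest and highest values over the left-out libraries were -1.86 and -1.09.

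LAMB3, a beta chain of epithelial laminins, was at 17.2, 24.4 and 23.1 TPM (NG), 12.6, 10.7 and 17 TPM (HG), 17.9, 18.5 and 16.9 TPM (si-FGF9) and 18.8, 17.5 and 17.2 TPM (HG+OE-FGF9). Its HG libraries held the lowest values, with overlap between groups. LAMB3 was not called in any comparison, and its log2 fold change with overexpression, 0.41 ± 0.18 (adjusted p = 0.172), was the most positive of the 34. LAMA4 stayed between 0.05 and 1.89 TPM and was not called in the comparisons as deposited.

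The 4 genes of nidogens and basement membrane proteoglycans all fell with overexpression. NID1, the nidogen that bridges the laminin and collagen IV networks, was at 67.3, 62.5 and 61.8 TPM (NG), 22.3, 15.4 and 28.4 TPM (HG), 8.3, 9.84 and 6.78 TPM (si-FGF9) and 5.3, 5.63 and 12.8 TPM (HG+OE-FGF9). NID2, its relative, was at 33.4, 25.8 and 23.8 TPM (NG), 9.04, 7.63 and 23.1 TPM (HG), 2.73, 2.52 and 3.53 TPM (si-FGF9) and 1.67, 0.84 and 6.6 TPM (HG+OE-FGF9). NG stood above the other groups without overlap for both, and for NID1 HG stood above si-FGF9 and HG+OE-FGF9. NID1 fell 2.9-fold in HG (log2 fold change -1.53 ± 0.29, adjusted p = 0.00202), 7.68-fold in si-FGF9 (-2.81 ± 0.29, adjusted p = 1.24e-05) and 2.78-fold with overexpression (-1.43 ± 0.29, adjusted p = 0.0124). NID2 fell 9.45-fold in si-FGF9 (-2.86 ± 0.48, adjusted p = 0.000197) and 4.36-fold with overexpression (-1.93 ± 0.48, adjusted p = 0.0263), with HG replicate 3 just under the NG range.

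HSPG2, which encodes perlecan, was at 40.1, 50.2 and 49.1 TPM (NG), 43.5, 40.7 and 42.7 TPM (HG), 26.8, 24.2 and 26.2 TPM (si-FGF9) and 10.9, 12 and 20.6 TPM (HG+OE-FGF9). AGRN, which encodes agrin, was at 94.2, 117 and 125 TPM (NG), 147, 159.7 and 136 TPM (HG), 166, 159.8 and 154 TPM (si-FGF9) and 50.1, 48.9 and 70.4 TPM (HG+OE-FGF9). In both genes every HG+OE-FGF9 library lay below the other 9, and AGRN was higher in HG and si-FGF9 than in NG without overlap, though in HG its log2 fold change turned to -0.04 after the correction for GC content. HSPG2 fell 2.92-fold with overexpression (log2 fold change -1.53 ± 0.20, adjusted p = 0.0011), and AGRN 2.61-fold (-1.39 ± 0.16, adjusted p = 0.000546). Against NG neither was called, with log2 fold changes of -0.13 ± 0.20 and 0.40 ± 0.16 (HG) and -0.82 ± 0.20 and 0.52 ± 0.16 (si-FGF9). HSPG2 was called lower in si-FGF9 after the correction for GC content (-1.10).

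**Figure D4:**
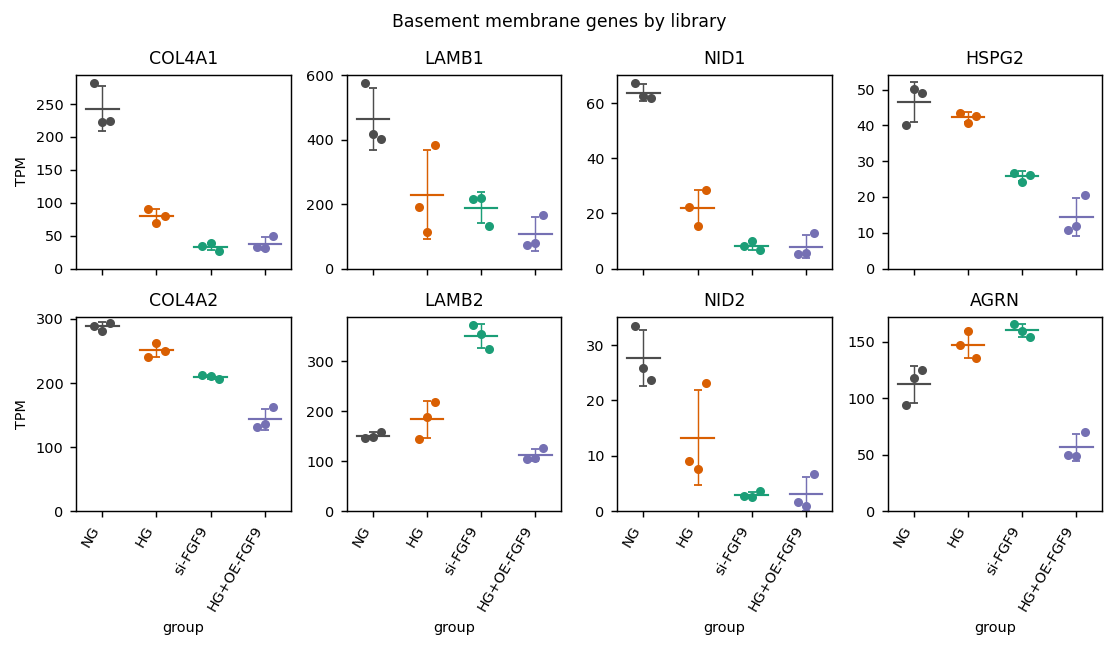
TPM of 8 basement membrane genes in each library (points), with the mean (line) and SD (bars) of each group of 3. COL4A1 drops from 223 TPM or more in NG to 90.8 or less elsewhere while COL4A2 stays at 131 TPM or more, LAMB2 is highest in si-FGF9, and HSPG2 and AGRN are lowest in HG+OE-FGF9.

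Among the collagens outside the collagen IV network, COL7A1 was the only gene of the 34 called in opposite directions, higher in si-FGF9 and lower with overexpression. COL7A1, the collagen of anchoring fibrils, was at 117, 121 and 119 TPM (NG), 177, 204 and 168 TPM (HG), 328, 336 and 294 TPM (si-FGF9) and 75.7, 72.3 and 112 TPM (HG+OE-FGF9). It was highest in si-FGF9 and lowest in HG+OE-FGF9, with no overlap between any groups. COL7A1 rose 2.69-fold in si-FGF9 (log2 fold change 1.42 ± 0.16, adjusted p = 1.72e-05) and fell 2.12-fold with overexpression (-1.10 ± 0.16, adjusted p = 0.00211), the latter call lost without HG+OE-FGF9 replicate 2. In HG its log2 fold change was 0.61 ± 0.16 (adjusted p = 0.00821), under the fold criterion. After the correction for GC content the HG value was 0.28 (adjusted p = 0.192 in limma).

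COL8A1, a short-chain network collagen, was at 50.6, 44.4 and 42.3 TPM (NG), 23.9, 15.8 and 19.8 TPM (HG), 6.6, 7 and 4.91 TPM (si-FGF9) and 2.17, 1.92 and 7.96 TPM (HG+OE-FGF9). The groups descended from NG to HG to si-FGF9, and HG+OE-FGF9 replicates 1 and 2 held the lowest values. COL8A1 fell in HG (log2 fold change -1.18 ± 0.35, adjusted p = 0.0159), in si-FGF9 (-2.71 ± 0.35, adjusted p = 3.64e-05) and with overexpression (-2.24 ± 0.35, adjusted p = 0.00318), the last of which was the largest fold change of the 34 in that comparison. The HG call was lost without HG replicate 2, HG replicate 3 or any NG library, and after the correction for GC content (-0.69).

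COL18A1, whose C-terminal fragment is endostatin, was at 38.6, 53.1 and 51.4 TPM (NG), 50.5, 47.8 and 45.3 TPM (HG), 49, 45.4 and 42.3 TPM (si-FGF9) and 17.2, 16 and 23.7 TPM (HG+OE-FGF9). COL5A1, a regulator of fibril assembly, was at 45.2, 53.8 and 56.1 TPM (NG), 33.7, 31.8 and 36.3 TPM (HG), 47.5, 48.5 and 34.4 TPM (si-FGF9) and 14.3, 14.1 and 16.2 TPM (HG+OE-FGF9). In both genes every HG+OE-FGF9 library lay below the other 9, and si-FGF9 overlapped HG. COL18A1 fell 2.52-fold with overexpression (log2 fold change -1.31 ± 0.17, adjusted p = 0.00108) and COL5A1 2.29-fold (-1.14 ± 0.16, adjusted p = 0.00165). Neither was called in HG or si-FGF9. COL16A1, a fibril-associated collagen, was at 21.9, 20.0 and 22.2 TPM (NG), 12.4, 12.5 and 14 TPM (HG), 12.9, 11.3 and 10.6 TPM (si-FGF9) and 8.12, 8.2 and 10.2 TPM (HG+OE-FGF9), with NG above all others and no call in any comparison.

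Collagen VI forms beaded microfibrils from COL6A1, COL6A2 and COL6A3, of which COL6A3 was not expressed. COL6A1 was at 62.1, 78.1 and 79 TPM (NG), 80.1, 83.4 and 90.8 TPM (HG), 117, 117 and 116 TPM (si-FGF9) and 56.4, 54.1 and 67.9 TPM (HG+OE-FGF9). COL6A2 was at 118, 136 and 143 TPM (NG), 125, 127 and 142 TPM (HG), 124, 116 and 119 TPM (si-FGF9) and 79.2, 79.4 and 108 TPM (HG+OE-FGF9). COL6A1 was highest in si-FGF9 without overlap, while the COL6A2 values of HG+OE-FGF9 lay below the other 9. Neither gene was called. The log2 fold change of COL6A1 with the siRNA was 0.68 ± 0.14 (adjusted p = 0.000801), and with overexpression the values of both were -0.51 ± 0.14 (adjusted p = 0.0378) and -0.57 ± 0.14 (adjusted p = 0.0276). The low collagens were COL1A1 (mean 5.98 TPM in NG and 2.38 in HG), COL12A1 (4.79 and 1.77) and COL13A1 (8.06 and 4.82), with COL17A1 between 0.19 and 3.31 TPM. COL1A1 and COL12A1 fell in HG and si-FGF9, and COL13A1 fell in si-FGF9 and with overexpression. After the correction for GC content COL12A1 was called in neither comparison and COL13A1 not in si-FGF9, and the HG call of COL1A1 was lost without HG replicate 3 or NG replicate 2, and its si-FGF9 call without NG replicate 2. In addition, COL17A1 was called higher in si-FGF9 against HG at 1.02 ± 0.33, a call lost when any of 8 of the 12 libraries was left out.

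The matrix glycoproteins held the largest fold in HG and si-FGF9, that of VCAN. VCAN, the gene of the hyaluronan-binding proteoglycan versican, was at 68.8, 69.9 and 66.8 TPM (NG), 18.1, 9.33 and 21.8 TPM (HG), 3.99, 3.85 and 2.19 TPM (si-FGF9) and 1.85, 1.64 and 8 TPM (HG+OE-FGF9). NG libraries lay close together, between 66.8 and 69.9 TPM, and no treated library came above 21.8 TPM. VCAN fell 4.17-fold in HG (log2 fold change -2.07 ± 0.43, adjusted p = 0.00267), 20.5-fold in si-FGF9 (-4.03 ± 0.43, adjusted p = 1.28e-05) and 4.28-fold with overexpression (-2.02 ± 0.43, adjusted p = 0.0136). With a GC content of 42.9% it is among the genes lowest in GC, and its corrected log2 fold changes were -1.25, -2.73 and -1.81, all called. An antisense gene overlaps its exons.

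FN1 was at 6149, 4745 and 4664 TPM (NG), 2661, 1590.4 and 3443 TPM (HG), 1451, 1751 and 1266 TPM (si-FGF9) and 560.0, 567 and 1942 TPM (HG+OE-FGF9). HG replicate 3 and HG+OE-FGF9 replicate 3 were the highest of their groups, and the latter exceeded 1 of the HG libraries. FN1 fell 3.48-fold in si-FGF9 (log2 fold change -1.80 ± 0.42, adjusted p = 0.002) and 2.51-fold with overexpression (-1.52 ± 0.42, adjusted p = 0.0406). FN1 has the lowest GC content of the 34, at 42.2%, and after the correction its log2 fold change was -0.43 in si-FGF9 and -0.20 in HG, against -1.29 with overexpression. The overexpression call was lost without HG replicate 1 or 3 or HG+OE-FGF9 replicate 1 or 2, and the log2 fold change then ran from -2.11 to -1.22 over all left-out libraries.

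SPARC was at 1644, 1583 and 1657 TPM (NG), 973, 786 and 880.5 TPM (HG), 528, 566 and 502 TPM (si-FGF9) and 489, 487 and 642 TPM (HG+OE-FGF9). TGFBI was at 2858, 2399 and 2404 TPM (NG), 2188, 2079 and 2045 TPM (HG), 1673, 1668 and 1728 TPM (si-FGF9) and 1104, 1108 and 1420.3 TPM (HG+OE-FGF9). Both were highest in NG, followed by HG, and in TGFBI every HG+OE-FGF9 library was below the other 9. SPARC fell 3.06-fold in si-FGF9 (log2 fold change -1.61 ± 0.13, adjusted p = 5.36e-06, and -0.79 after the correction for GC content), and had -0.89 ± 0.13 in HG and -0.71 ± 0.13 with overexpression, under the fold criterion. TGFBI was called in none, and its log2 fold change with overexpression was -0.81 ± 0.12 (adjusted p = 0.00226).

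The fibrillins build the microfibrils on which latent TGF-beta complexes are stored. FBN1 was at 115, 88.7 and 87.5 TPM (NG), 42.5, 28.5 and 58.7 TPM (HG), 21.5, 25.7 and 18.4 TPM (si-FGF9) and 12.3, 11.5 and 28.3 TPM (HG+OE-FGF9). FBN2 was at 12.8, 11.3 and 11 TPM (NG), 5.18, 2.9 and 8.2 TPM (HG), 3.35, 3 and 2.58 TPM (si-FGF9) and 1.81, 1.7 and 4.41 TPM (HG+OE-FGF9). NG exceeded all other groups in both. FBN1 fell in HG (log2 fold change -1.19 ± 0.32, adjusted p = 0.0101), si-FGF9 (-2.10 ± 0.32, adjusted p = 0.000116) and with overexpression (-1.33 ± 0.32, adjusted p = 0.0255), and the HG value became -0.70, not called, after the correction for GC content. FBN2 fell in HG (-1.07 ± 0.32, adjusted p = 0.0161) and si-FGF9 (-1.68 ± 0.32, adjusted p = 0.000522), though neither was called after that correction.

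TNC, the gene of tenascin-C, a glycoprotein of wounded tissue, was at 44.2, 43.8 and 43.2 TPM (NG), 27.6, 18.1 and 27.7 TPM (HG), 9.71, 10.4 and 7.48 TPM (si-FGF9) and 6.77, 6.7 and 20.7 TPM (HG+OE-FGF9). HG+OE-FGF9 replicate 3 overlapped HG, and si-FGF9 did not. TNC fell 4.76-fold in si-FGF9 (log2 fold change -2.15 ± 0.34, adjusted p = 0.00014) and 2.15-fold with overexpression (-1.20 ± 0.34, adjusted p = 0.0469), the latter lost without HG replicate 1 or 3 or HG+OE-FGF9 replicate 1 or 2. Of the latent TGF-beta binding proteins among the 42 genes, LTBP2 and LTBP3 were expressed and differed. LTBP2 was at 12.6, 12.9 and 13.5 TPM (NG), 7.69, 6.38 and 8.93 TPM (HG), 5.61, 5.79 and 5.37 TPM (si-FGF9) and 2.54, 2.86 and 4.68 TPM (HG+OE-FGF9). LTBP3 was at 25.4, 32.5 and 30.3 TPM (NG), 36.5, 42.2 and 37.4 TPM (HG), 47.6, 42.4 and 45.9 TPM (si-FGF9) and 21, 21.5 and 28.3 TPM (HG+OE-FGF9). LTBP2 went down from NG in every group, and LTBP3 was above NG in HG and si-FGF9, though its HG value turned to -0.06 on the log2 scale after the correction for GC content. LTBP2 fell in si-FGF9 (log2 fold change -1.09 ± 0.20, adjusted p = 0.000369) and with overexpression (-1.01 ± 0.20, adjusted p = 0.0095), the latter at the edge of the fold criterion and lost without HG replicate 3 or HG+OE-FGF9 replicate 1 or 2. After the correction for GC content the si-FGF9 call was lost (-0.87). LTBP3 was called in none (0.39 ± 0.15, 0.61 ± 0.15 and -0.70 ± 0.15).

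**Figure D5:**
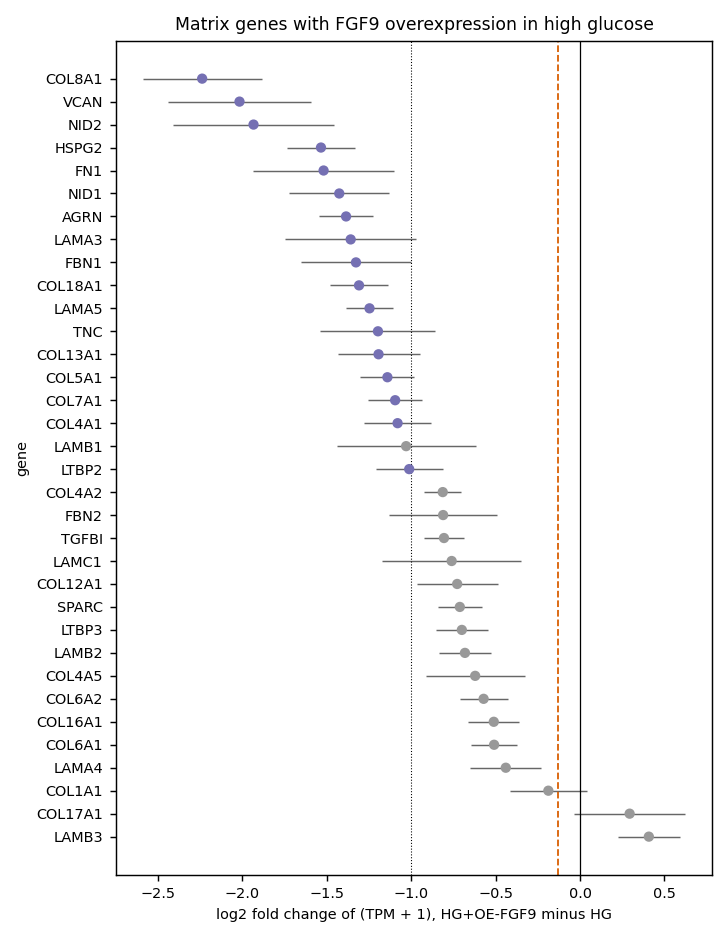
Log2 fold change of (TPM + 1) in HG+OE-FGF9 minus HG for the 34 expressed matrix genes, with the standard error from limma as horizontal bars. Purple points mark the 17 called lower, the dotted line the fold criterion of -1 and the dashed orange line the median of all genes tested, -0.13. COL8A1, VCAN and NID2 are at the low end, and COL17A1 and LAMB3 are to the right of 0.

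Counts were also taken by GC content. Of the 13 expressed matrix genes with a GC content of 60% or more, 6 fell with overexpression (AGRN, COL18A1, COL5A1, COL7A1, HSPG2 and LAMA5), against 2.18% of all genes in that GC range. In HG 1 of the 13 fell, against 1.12%, and in si-FGF9 1 fell and 2 rose, against 6.75% and 16.2%. Of the 16 with a GC content under 55%, 8 fell with overexpression, against 2.89% of all such genes. In HG 7 of the 16 fell, against 31.6%, and in si-FGF9 14, against 55.1%.

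Leaving out any 1 library kept 11 of the 17 calls: AGRN, COL13A1, COL18A1, COL5A1, COL8A1, FBN1, HSPG2, LAMA5, NID1, NID2 and VCAN. The count was lowest, 11, without HG+OE-FGF9 replicate 2, and all 17 remained without both libraries that stood apart. The share of all genes called lower in these 2 fits was 1.43% and 6.5%. In HG versus NG, only COL4A1, NID1 and VCAN kept their calls under each left-out library, and the count dropped from 9 to 4 without HG replicate 2 and to 5 without NG replicate 1 or NG replicate 2. In si-FGF9 versus NG, 17 of 20 calls were kept.

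In the direct comparison of si-FGF9 with HG, COL4A1 (-1.24), COL8A1 (-1.53), NID1 (-1.28), NID2 (-1.71), VCAN (-1.95) and TNC (-1.31) were lower in si-FGF9 on the log2 scale. NID2 lost its call without HG replicate 3 or si-FGF9 replicate 1 or 2, and TNC without HG replicate 1 or si-FGF9 replicate 3. Under the GC correction COL8A1, TNC and VCAN remained lower and LAMB2 and COL17A1 were higher. Of all genes 2.52% were then called lower and 3.34% higher. With the replicate block added to that correction, TNC lost its call and NID2 kept it.

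Of 92 other genes of collagens, laminins, proteoglycans, glycoproteins and related matrix proteins, 35 were expressed. In HG 11 fell (31.4%) and none rose, against 22.7% and 1.65% of all genes tested. In si-FGF9 19 fell (54.3%) and 2 rose (5.71%), against 42.2% and 5.36%. With overexpression 7 fell and none rose, against 2.67% and 2.94%. In si-FGF9 against HG 5 were lower (14.3%) and 1 was higher (2.86%), against 9.67% and 1.4%. Of those with a positive fold change, 1 in HG and 0 with overexpression had an unadjusted p under 0.05 in limma. The share lower with overexpression, 20%, stood between that of the 34 genes above and that of all genes. The largest falls among those at 10 TPM or more were NTN4, a laminin-binding netrin (-2.17 and -2.76 on the log2 scale, HG and si-FGF9 in this order), and CRIM1, a membrane protein that binds BMPs (-1.70 and -2.75). With overexpression they were MATN2, a matrilin (-1.99, adjusted p = 0.00206), and NPNT, the integrin ligand nephronectin (-1.72, adjusted p = 0.0241). In si-FGF9 against HG they were TINAGL1 (-1.41) and EFEMP1 (-1.27).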

How the data were processed

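HK2 RNA was sequenced on a HiSeq3000 in 12 libraries, 3 for each of 4 groups taken from the sample labels. The authors deposited TPM to 2 decimals for 62703 Ensembl identifiers, scaled to the same sum in each library. The quantifier and annotation are not given in the sources used here. The submitters' processing notes name Bowtie 0.12.2 and mm8, a mouse build, although the identifiers are human. TPM hold no record of depth, so that counting error is unknown and precision rests on the spread of 3 libraries, with which an exact test of 3 against 3 cannot go below p = 0.1.

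Names were matched through the annotation tables for 62625 identifiers. Genes with TPM of at least 1 in 3 libraries (14639) entered a limma fit (version 3.58.1, R 4.3.3) to log2(TPM + 1), with all 12 libraries together and the variance allowed to follow the mean. The pseudocount understates changes of low genes. The fit was tested on simulated data. The comparisons were those of the study and si-FGF9 versus HG, and comparisons with the same control libraries are not independent. The members and lists were chosen with earlier results of these data known. Members with a group mean of at least 10 TPM were given in every library and the others by mean, range or highest value. From 92 other matrix genes only counts were given and, in each comparison, the 2 largest called changes per direction at 10 TPM or more. Values of some genes in the lists are not reported here. GC content and length came from the longest transcript in GENCODE 29 (GRCh38), for 96.9% of the genes tested. The correction for GC content subtracted a natural spline with 5 degrees of freedom from each library. Promoter windows are from RefSeq on GRCh38.p14, which may differ from the authors' build, and matched 35 of the 42. COL1A1, COL1A2, COL3A1, COL5A2, COL6A1, COL8A1 and AGRN were not matched. Exons of 13 of the 34 expressed genes overlap a gene on the opposite strand, and the strand setting of the counting is not given in the sources used here.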

Additional observations from a re-analysis of the deposited data

How the results depend on the processing

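The number of matrix genes lower with overexpression, 17 of 34, stayed between 12 and 18 under the alternatives that keep all libraries (no filter, a pseudocount of 0.1, the 6 libraries of the comparison alone, median-of-ratios or quantile scaling, and corrections for GC content and length), and none was higher. The share of all genes called lower ran from 1.08% with no filter to 4.74% with a pseudocount of 0.1. The calls of COL4A1, COL7A1 and LTBP2 were lost under the correction for GC content and length, those of FBN1, FN1, LAMA3, NID2 and TNC with the 6 libraries alone, and that of LTBP2 under quantile scaling. The counts in the other comparisons depended on scaling and GC content. For HG versus NG, genes lower went from 9 to 3 under median-of-ratios scaling, 5 under quantile normalization, 4 under the correction for GC content, 4 under that correction with the replicate block and 3 under the correction for GC content and length, and genes higher from 0 to 1 under median-of-ratios scaling. The share of all genes called lower moved too, from 22.7% to 8.27, 8.33, 3.06, 3.05 and 2.45% in the same order. For si-FGF9 versus NG, genes lower went from 18 to 9, 11, 10, 10 and 6 in the same order and genes higher from 2 to 7, 5, 4, 4 and 4, while the shares of all genes went from 42.2% to 17.5, 17.1, 12, 11.9 and 9.39% lower and from 5.36% to 19.2, 16.2, 12.3, 12.2 and 10.5% higher. For si-FGF9 versus HG, genes lower went from 6 to 2, 2, 3, 3 and 2, and the share of all genes from 9.67% to 2.23, 2.37, 2.52, 2.38 and 2.37%. Genes higher there went from 1 to 3 under median-of-ratios scaling, 2 under each of the 3 corrections with GC content, and 0 with no filter, a pseudocount of 0.1 or rescaling without mitochondrial genes. The share of all genes called higher there went from 1.4% to 5.77% under median-of-ratios scaling. It was 3.34, 3.23 and 3.07% under the corrections in the order above, and 0.567, 1.55 and 0.984% under the last settings as named. The corrections also remove the overall shift of a library, and the cause of the differences was not tested.

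With a single library left out, the fit gave 4 to 13 genes lower in HG versus NG, 16 to 18 in si-FGF9 versus NG, 11 to 20 in HG+OE-FGF9 versus HG and 5 to 7 in si-FGF9 versus HG, with 0 to 2 higher in the last. The shares of all genes called lower ran from 14.4 to 28.5%, 40.8 to 42.6%, 1.43 to 7% and 6.18 to 16.1%. With HG replicate 3 and HG+OE-FGF9 replicate 3 both left out, the counts were 12, 18, 17 and 6 lower and 2 higher in the last. The shares of all genes called lower were then 28.9, 42.8, 6.5 and 10.4%, and 2.49% were called higher in the last. That alternative, the correction for length and the rescaling without mitochondrial genes were chosen after seeing the data. Where a group was left with 2 libraries, they were assumed to vary like the other groups. Libraries with the same replicate number did not deviate together in every pair (correlations of -0.439 to 0.248 between groups), so no pairing was taken from the numbers. With 3 libraries in a group, such correlations cannot show that a pairing was absent. The fit with the replicate block called 9, 18, 17 and 6 genes lower and 0, 2, 0 and 1 higher, as without it. Over single genes, 2947 values kept their direction and call, 173 lost the call and 51 gained it. A further 93, called in neither fit, changed sign, 1 of them with overexpression. Without depth the counting error of values under 1 TPM is unknown, and 8 of the 42 genes were left untested.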
